A study of Homo sapiens with 4 samples.

Results

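The miR-106b-25 and miR-106a-363 clusters were followed through 8 mature miRNAs of the count tables, chosen by name from the 1733 miRNAs listed in each library. They were hsa-miR-106b, hsa-miR-93 and hsa-miR-25 of the miR-106b-25 cluster, hsa-miR-106a, hsa-miR-18b, hsa-miR-20b and hsa-miR-363 of the miR-106a-363 cluster, and hsa-miR-92b. Guide strands were taken as members, and all 8 had a row in every table. Small RNA was sequenced from 2 established hepatoma lines, Hep3B and Huh7, here called HCC cells, and from stem-like cells derived from each line, Hep3B-C and Huh7-C, which the labels call hepatic cancer stem cells (HCSCs). The labels name no genetic change or drug in any of the 4 groups, and each group had 1 library, so no difference below has a replicate check. HCSC markers at the cell surface are proteins and could not be checked in miRNA counts.

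These clusters are copies of the miR-17-92 cluster on chromosome 13, and miRNAs of the same position in each copy often share a seed, the stretch of bases that pairs with target mRNAs. A cluster is transcribed as 1 primary RNA, which is cut into separate hairpins, so that mature miRNAs of 1 transcript can still differ in level. The miR-17-92 cluster and its copies are known to promote growth and to dampen the cell cycle inhibitor p21 and the pro-apoptotic factor BIM. The miR-106b-25 cluster is known to be expressed with its host gene MCM7, a helicase subunit of DNA replication, and to be raised in liver tumors, while the miR-106a-363 cluster is best known from embryonic stem cells and some leukemias.

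The sequences below show the seed groups of the members and how close some of them are to miRNAs of the miR-17-92 cluster, which bears on how reads could be assigned. They are mature sequences from RefSeq (GRCh38.p14), and all 8 members were matched by name. Capitals mark the seed, bases 2 to 8.
hsa-miR-106b: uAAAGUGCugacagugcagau
hsa-miR-93: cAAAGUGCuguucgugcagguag
hsa-miR-106a: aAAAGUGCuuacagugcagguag
hsa-miR-20b: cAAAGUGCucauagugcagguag
hsa-miR-17: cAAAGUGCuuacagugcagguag
hsa-miR-20a: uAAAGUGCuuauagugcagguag
hsa-miR-18b: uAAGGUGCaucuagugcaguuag
hsa-miR-18a: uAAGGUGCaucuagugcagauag
hsa-miR-25: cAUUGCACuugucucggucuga
hsa-miR-363: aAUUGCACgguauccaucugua
hsa-miR-92b: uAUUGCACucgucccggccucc
hsa-miR-92a: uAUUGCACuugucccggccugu
Of the 8 members, 4 carried the seed AAAGUGC, 3 carried AUUGCAC and 1 carried AAGGUGC. Counting positions from 1 at the 5′ end and writing the base of the miR-17-92 member first, hsa-miR-106a differed from hsa-miR-17 by C1A alone and hsa-miR-18b from hsa-miR-18a by A20U alone. Hsa-miR-20b differed from hsa-miR-20a by U1C and U10C. Hsa-miR-92b differed from hsa-miR-92a at 3 positions and hsa-miR-25 at 4, whereas hsa-miR-363 differed from it at 12 of 22. How the authors assigned reads that match such pairs equally well is not given in the sources used here.

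In GENCODE release 29 (GRCh38), MIR106B, MIR93 and MIR25 lie within 515 bases on the minus strand of chromosome 7, from 100093560 to 100094074, in an intron of each of the 8 MCM7 transcripts that span them. The 6 hairpins of the miR-106a-363 cluster lie within 901 bases on the minus strand of chromosome X, from 134169378 to 134170278, in an exon of the non-coding transcript AC002407.1. MIR92B belongs to neither cluster. It lies on chromosome 1 from 155195177 to 155195272, on the plus strand, in an exon of the non-coding transcript AC234582.1, and joins the members through its seed alone. The hairpins MIR19B2 and MIR92A2 of the chromosome X cluster give the same mature sequences as the chromosome 13 copies, so hsa-miR-19b and hsa-miR-92a cannot be traced to either cluster and are not members. The files hold no coordinates, and the authors' mapping used an older genome build.

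**Figure D1:**
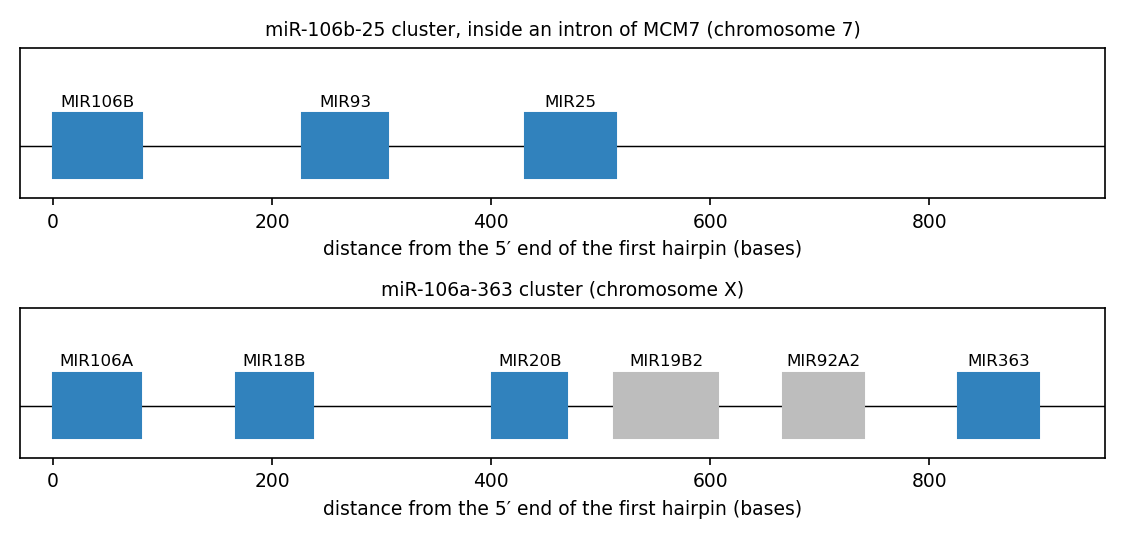
Hairpins of the miR-106b-25 cluster (3) and the miR-106a-363 cluster (6) in the direction of transcription, with distance in bases from the 5′ end of the first hairpin on the x axis. Blue hairpins give members and gray hairpins give miRNAs whose mature sequence is also made on chromosome 13.

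The counts of a library summed to between 1739278 in Hep3B and 5741567 in Huh7. Levels are given as TPM, the count scaled to 1000000 reads of any kind in the library, so that reads other than miRNA enter the scale. MiRNA counts made up 10.4% of total reads in Hep3B against 35.2% in Hep3B-C, and 54.1% in Huh7 against 37.8% in Huh7-C. A second scale, the count per 1000000 miRNA counts, is therefore given beside TPM for fold-changes and for several levels whose order of libraries it changes. Where a level is given in TPM alone, its order may not hold on the second scale. The smallest level the depth could show was set at 3 counts, 0.179 TPM in Hep3B and 0.282 TPM in Huh7. As a check of the labels, 5 hepatocyte markers (hsa-miR-122, hsa-miR-122*, hsa-miR-885-5p, hsa-miR-192 and hsa-miR-194) summed to between 11008 TPM in Hep3B and 115662 TPM in Huh7. Parent Hep3B stood apart in hsa-miR-122, the most liver-specific of these, with 397 counts against 149892 in Hep3B-C and 489443 in Huh7, while hsa-miR-885-5p had 186 and 159 counts in the Hep3B line and 2 and 0 in the Huh7 line. Of 7 markers of pluripotent cells, hsa-miR-302a to hsa-miR-302d and hsa-miR-367 were at 0 in all 4 libraries, and the list summed to at most 9 counts (in Huh7-C). Blood cell markers summed to 793 counts in Huh7, of which 773 were hsa-miR-451, and to between 1 and 6 counts in the other libraries. Mesenchymal markers summed to 427 counts in Hep3B and 1711 in Hep3B-C, nearly all of them hsa-miR-143. Their part in the results below was not tested.

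The 3 miRNAs of the miR-106b-25 cluster made up nearly all reads of the members. Together they had 2733 TPM in Hep3B against 4883 in Hep3B-C, and 3087 in Huh7 against 3117 in Huh7-C. This was 2.64% of miRNA counts in Hep3B (95% Clopper-Pearson interval 2.61% to 2.66%), 1.39% in Hep3B-C, and 0.571% in Huh7 against 0.826% in Huh7-C. The order of the libraries thus differed between the scales, with Hep3B-C highest by TPM and Hep3B highest by share of miRNA counts. Intervals here and below cover counting error only, since reads are not independent molecules and no culture was sequenced more than once.

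Hsa-miR-93, the most abundant member, had 39212 counts (2336 TPM) in Hep3B against 57425 (3719 TPM) in Hep3B-C, and 24400 (2297 TPM) in Huh7 against 25188 (2351 TPM) in Huh7-C. It supplied between 74.4% of the cluster's counts in Huh7 and 85.5% in Hep3B. In TPM Hep3B-C was highest and the other 3 libraries lay close together. Per 1000000 miRNA counts Hep3B was highest, with 22545 against 10575 in Hep3B-C, and Huh7 lowest, with 4250 against 6227 in Huh7-C. Hsa-miR-106b, from the hairpin at the 5′ end of the cluster and of the same seed as hsa-miR-93, had 3034 counts (181 TPM) in Hep3B against 3540 (229 TPM) in Hep3B-C, and 5320 (501 TPM) in Huh7 against 2726 (254 TPM) in Huh7-C. Huh7 was highest in TPM, but Hep3B was highest per 1000000 miRNA counts, with 1744 against 927 in Huh7. Hsa-miR-25, from the last hairpin and of the seed AUUGCAC, had 3618 counts (216 TPM) in Hep3B against 14427 (934 TPM) in Hep3B-C, and 3068 (289 TPM) in Huh7 against 5486 (512 TPM) in Huh7-C. Hep3B was lowest in TPM, but Huh7 was lowest per 1000000 miRNA counts, with 534 against 2080 in Hep3B. Each HCSC library stood above its own parent library, and hsa-miR-25 was the only member for which this held in both lines on both scales.

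**Figure D2:**
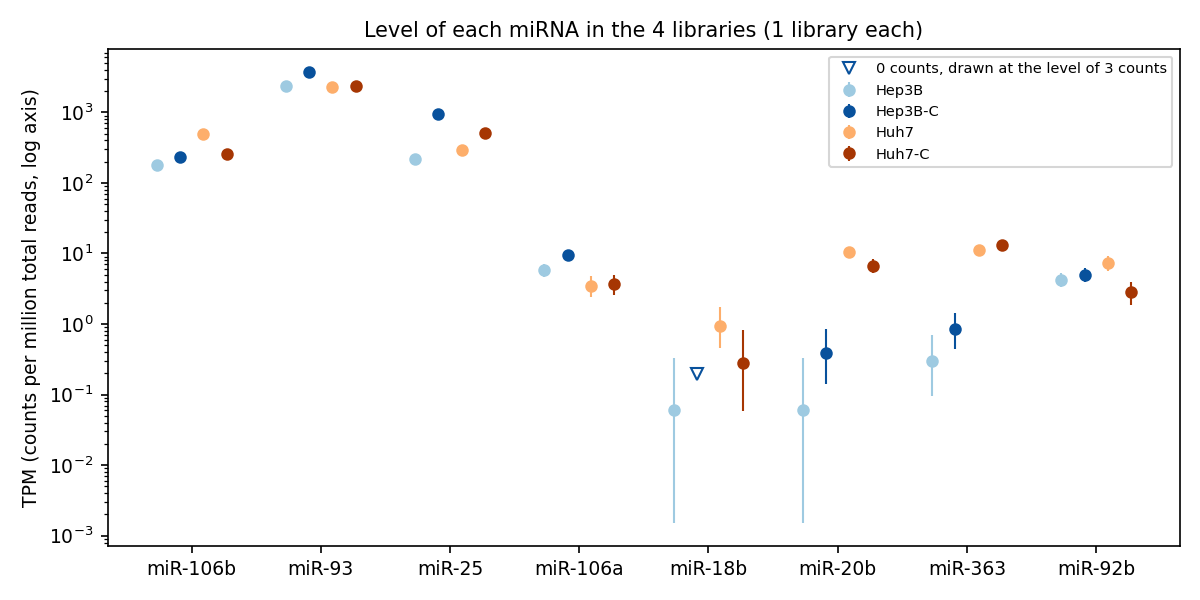
TPM of the 8 members (log axis) in Hep3B, Hep3B-C, Huh7 and Huh7-C, 1 library each, with 95% Clopper-Pearson intervals for counting error. The open triangle marks 0 counts. The lowest level in the miR-106b-25 cluster is 181 TPM, and the highest among the other members is 13.1 TPM.

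The members of the miR-106a-363 cluster were scarce, with 104 counts in all in Hep3B (6.20 TPM), 164 in Hep3B-C (10.6 TPM), 275 in Huh7 (25.9 TPM) and 254 in Huh7-C (23.7 TPM). The order of the parent lines turned on the other scale, where these counts were 0.00598% of miRNA counts in Hep3B and 0.00479% in Huh7. Their make-up differed between the lines. In the Hep3B line nearly all of these counts were hsa-miR-106a (93.3% in Hep3B and 88.4% in Hep3B-C), while hsa-miR-363 led in Huh7 (42.9%) and Huh7-C (55.1%). Hsa-miR-20b had 1 count in Hep3B, 6 in Hep3B-C, 110 in Huh7 (10.4 TPM) and 72 in Huh7-C (6.72 TPM). Hsa-miR-363, from the last hairpin of the cluster, had 5 counts in Hep3B, 13 in Hep3B-C, 118 in Huh7 (11.1 TPM) and 140 in Huh7-C (13.1 TPM). Both were near the limit of detection in the Hep3B line and well above it in the Huh7 line.

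Hsa-miR-18b, of the seed shared with hsa-miR-18a, was at or under the floor of 3 counts in all libraries but Huh7, with 1 count in Hep3B against 0 in Hep3B-C, and 10 in Huh7 against 3 in Huh7-C. The 0 counts in Hep3B-C allow a level of up to 0.194 TPM by the limit of 3 counts, and up to 0.239 TPM by the 95% Clopper-Pearson interval. Hsa-miR-106a had the opposite order between the lines, with 97 counts (5.78 TPM) in Hep3B against 145 (9.39 TPM) in Hep3B-C, and 37 (3.48 TPM) in Huh7 against 39 (3.64 TPM) in Huh7-C. Hsa-miR-92b had 71 counts (4.23 TPM) in Hep3B against 76 (4.92 TPM) in Hep3B-C, and 77 (7.25 TPM) in Huh7 against 30 (2.80 TPM) in Huh7-C. Its lowest library was Huh7-C, and the other 3 had nearly the same counts.

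To find which members were altered in HCSCs, the study's kind of test and its thresholds were applied within each pair, here to all miRNAs with a count in the pair, which may differ from the set the study tested. A call needed a log2 fold-change (HCSCs over HCC cells) of 1 or more in size, together with an adjusted p of 0.01 or less in the Audic and Claverie exact Poisson test, which compares 2 libraries and not 2 conditions. In the Hep3B pair, 1 of the 8 members, hsa-miR-25, was up-regulated and 0 were down-regulated. The share of up-regulated miRNAs was 33.0% over all 834 tested in this pair, and that of down-regulated ones 2.52%. In the Huh7 pair, 0 members were up-regulated and 1, hsa-miR-92b, was down-regulated, beside 2.98% and 17.1% of all 772 miRNAs tested. With 1 call among 8 in each pair, neither share of members was above its background.

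Hsa-miR-25 rose 4.33-fold from Hep3B to Hep3B-C, which is 2.12 on the log2 scale (95% exact binomial interval 2.06 to 2.17). The median log2 fold-change was 1.42 over the 475 miRNAs that reached 10 counts in Hep3B or Hep3B-C, so hsa-miR-25 lay 0.69 above it. In the Huh7 pair its log2 fold-change was 0.83 (interval 0.76 to 0.89), short of the 2-fold threshold, but it lay 1.49 above the median of -0.66 over 431 miRNAs. On the scale of miRNA counts the order of the pairs was turned around, with a log2 fold-change of 0.35 in the Hep3B pair (interval 0.30 to 0.41), which was not called, and of 1.34 in the Huh7 pair (interval 1.28 to 1.41), which was. The direction was upward in both pairs on both scales.

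Hsa-miR-106b and hsa-miR-93, cut from the same primary transcript, did not pass the 2-fold threshold in either pair. The log2 fold-change of hsa-miR-106b was 0.34 (interval 0.27 to 0.41) in the Hep3B pair and -0.98 (interval -1.04 to -0.91) in the Huh7 pair. That of hsa-miR-93 was 0.67 (interval 0.65 to 0.69) in the Hep3B pair and 0.03 (interval 0.01 to 0.06) in the Huh7 pair. With miRNA counts as library sizes both turned downward in the Hep3B pair, to -1.42 and -1.09, and were called down-regulated. On that scale 4 members were down-regulated and 0 up-regulated in the Hep3B pair, beside 13.4% and 5.28% of all miRNAs, and 0 were down-regulated and 1 up-regulated in the Huh7 pair, beside 9.59% and 6.99%. The other 2 down-regulated members in the Hep3B pair were hsa-miR-106a and hsa-miR-92b.

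Other library sizes were tried as well. With TMM, the trimmed mean of edgeR, 2 members (hsa-miR-106b and hsa-miR-92b) were down-regulated and 0 up-regulated in the Hep3B pair, beside 9.11% and 8.51% of all miRNAs, and 1 was down- and 1 up-regulated in the Huh7 pair, beside 11.7% and 4.92%. With DESeq2 size factors 0 members were called in the Hep3B pair, beside 11.0% of miRNAs up-regulated and 7.07% down-regulated. In the Huh7 pair, 1 member was up-regulated by these size factors and 0 down-regulated, beside 7.38% and 9.20%. The up-regulated member was hsa-miR-25 in each of these fits. Judged by a 2-fold change in TPM alone, 2 of the 6 members with 10 or more counts in the Hep3B pair (hsa-miR-25 and hsa-miR-363) were higher in Hep3B-C and 0 lower, beside 66.5% and 5.05% of miRNAs with as many counts. Under that minimum, hsa-miR-20b (1 count against 6) was also past 2-fold upward and hsa-miR-18b (1 count against 0) downward. In the Huh7 pair 0 members were higher and 2 lower (hsa-miR-18b and hsa-miR-92b), beside 7.42% and 37.4%.

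In the miR-106a-363 cluster the counts left wide intervals. The log2 fold-change of hsa-miR-106a was 0.70 (interval 0.32 to 1.09) in the Hep3B pair and 0.06 (interval -0.62 to 0.75) in the Huh7 pair. For hsa-miR-20b it was 2.71 in the Hep3B pair, from 1 to 6 counts, with an interval from -0.34 to 8.23, and -0.62 in the Huh7 pair (interval -1.07 to -0.18). For hsa-miR-363 it was 1.50 (interval -0.08 to 3.34) in the Hep3B pair and 0.23 (interval -0.13 to 0.60) in the Huh7 pair. A 2-fold change of hsa-miR-20b or hsa-miR-363 was therefore not detectable at this depth in the Hep3B pair. No fold is given for hsa-miR-18b in that pair, and in the Huh7 pair its log2 fold-change, from 10 to 3 counts, was -1.75 with an interval from -4.25 to 0.21.

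Hsa-miR-92b fell in the Huh7 pair by 1.37 on the log2 scale (interval -2.03 to -0.75; adjusted p = 1.51e-05, exact Poisson test over 772 miRNAs). With miRNA counts as library sizes the value was -0.85, under the threshold. In the Hep3B pair its log2 fold-change was 0.22 (interval -0.27 to 0.71) by total reads and -1.54 (interval -2.03 to -1.06) by miRNA counts, the latter called down-regulated. Relative to the median of all miRNAs it lay 0.71 lower in the Huh7 pair and 1.20 lower in the Hep3B pair. It therefore lay below the median in both pairs. In the Huh7 pair, however, 37.4% of miRNAs with at least 10 counts were also at least 2-fold lower by total reads.

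**Figure D3:**
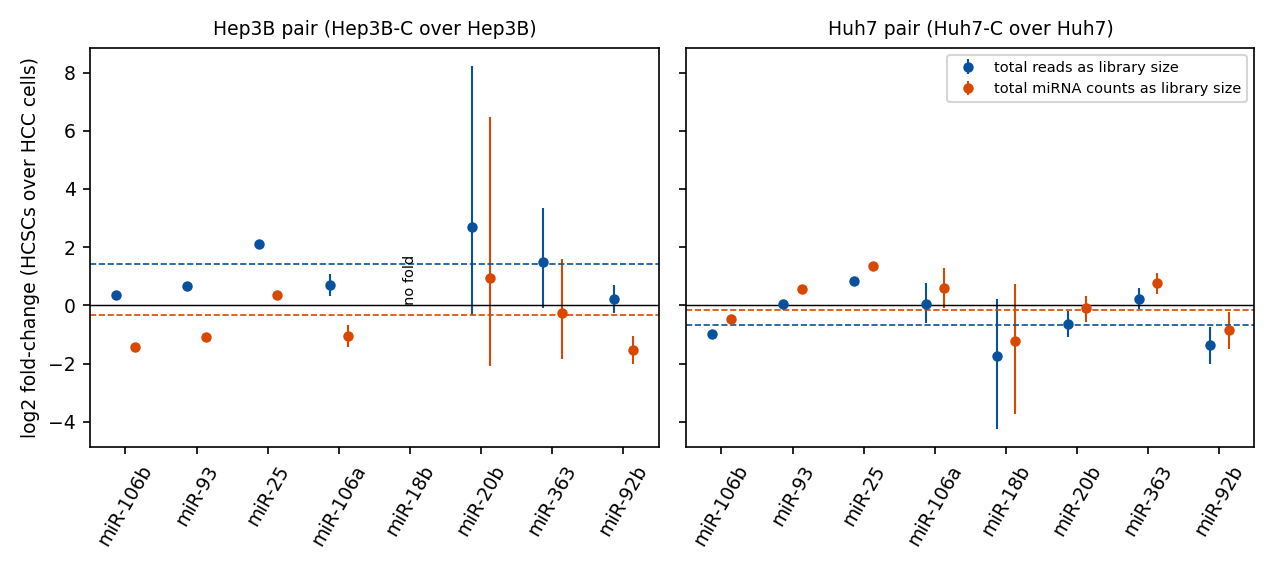
Log2 fold-change of HCSCs over HCC cells for the 8 members in both pairs, with total reads (blue) or total miRNA counts (orange) as library sizes. Bars are 95% exact binomial intervals for counting error and dashed lines the median of all miRNAs with at least 10 counts; only hsa-miR-25 lies clearly above 0 on both scales in both pairs.

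Taking the lines as replicates of the HCSC state, with the parent line as a block, the quasi-likelihood test of edgeR was applied to 443 miRNAs that reached 10 counts in 2 or more libraries, which left out hsa-miR-18b. It called 0 of the 443 miRNAs, and 0 of the 7 members fitted, at an adjusted p of 0.05; 31 miRNAs but 0 members had an unadjusted p below 0.05. Hsa-miR-25, with a log2 fold-change of 1.15 ± 0.50 (SE), and hsa-miR-92b, with -0.90 ± 0.43, shared the lowest adjusted p of the members, 0.584 from edgeR. DESeq2 called 4 of the 443 miRNAs up-regulated (0.903%), 1 down-regulated (0.226%) and 0 members (unadjusted p of hsa-miR-25 0.0392, adjusted p from DESeq2 0.999). The biological coefficient of variation estimated by edgeR from the 2 lines was 0.546.

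The ratio of 2 miRNAs in 1 library needs no library size, so ratios within the miR-106b-25 cluster were compared next. For each count of hsa-miR-106b there were 1.19 counts of hsa-miR-25 in Hep3B (95% interval 1.14 to 1.25) and 4.08 in Hep3B-C (interval 3.93 to 4.23). In the other line this ratio was 0.577 in Huh7 (interval 0.551 to 0.603) and 2.01 in Huh7-C (interval 1.92 to 2.11). It was thus 3.42-fold higher in Hep3B-C than in Hep3B and 3.49-fold higher in Huh7-C than in Huh7. On the log2 scale these differences were 1.77 (exact conditional interval 1.68 to 1.86) and 1.80 (interval 1.71 to 1.90). The 2 miRNAs lie at opposite ends of the cluster and have different seeds.

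Hsa-miR-93, in the middle of the cluster, lay between these 2. The ratio of hsa-miR-25 to hsa-miR-93 was 0.0923 in Hep3B and 0.251 in Hep3B-C, a log2 difference of 1.45 (interval 1.39 to 1.50). It was 0.126 in Huh7 and 0.218 in Huh7-C, a log2 difference of 0.79 (interval 0.72 to 0.86). The ratio of hsa-miR-93 to hsa-miR-106b was 12.9 in Hep3B and 16.2 in Hep3B-C, a log2 difference of 0.33, and 4.59 in Huh7 and 9.24 in Huh7-C, a log2 difference of 1.01. Both ratios were higher in the HCSC library of each pair, in favor of the miRNA nearer the 3′ end of the transcript. The ratio of hsa-miR-25 to hsa-miR-106b is the product of these 2, so its rise is not a separate observation.

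As a background, 19 pairs of neighboring miRNAs were formed among the guide strands with at least 100 counts in all 4 libraries, a single locus and a distance of at most 10000 bases on 1 strand. These pairs were chosen after the counts were seen, came from 21 miRNAs and include the 3 pairs of the miR-106b-25 cluster, so they are a description and not a test. In the Hep3B pair the ratio differed at least 2-fold in 4 of them (21.1%), and in the Huh7 pair in 9 (47.4%). It did so in both pairs and in the same direction in 1 of the 19 (5.26%), which was hsa-miR-25 with hsa-miR-106b.

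**Figure D4:**
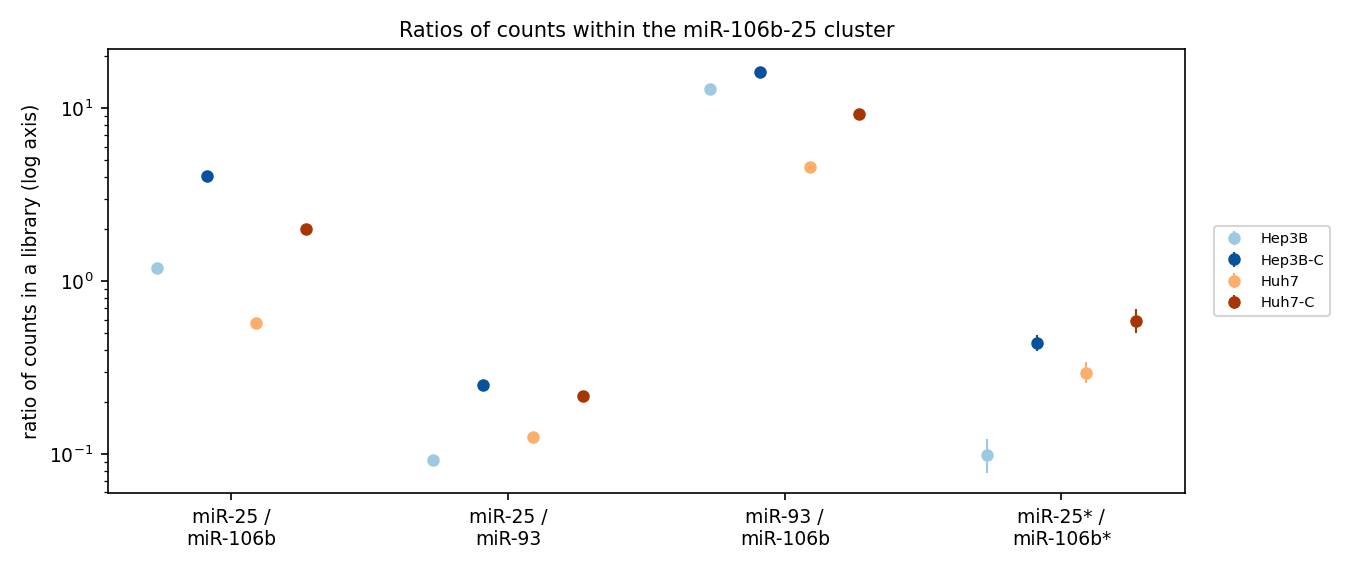
Ratio of counts (log axis) between miRNAs of the miR-106b-25 cluster in each of the 4 libraries, with 95% intervals for counting error. In each line the HCSC library lies above its HCC library for all 4 ratios, for hsa-miR-25 over hsa-miR-106b at 4.08 against 1.19 and 2.01 against 0.577.

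The passenger strands, which are the other arms of the same hairpins and are marked by an asterisk, gave a second reading of the cluster. Hsa-miR-106b* had 876 counts in Hep3B against 1048 in Hep3B-C, and 865 in Huh7 against 414 in Huh7-C. It was down-regulated in the Huh7 pair (log2 fold-change -1.08, interval -1.25 to -0.90). The ratio of guide to passenger of this hairpin did not change beyond counting error, at 3.46 in Hep3B and 3.38 in Hep3B-C (log2 difference -0.04, interval -0.19 to 0.11), and of 6.15 in Huh7 and 6.58 in Huh7-C (0.10, interval -0.09 to 0.28). Hsa-miR-25* had 86 counts in Hep3B against 460 in Hep3B-C, and 256 in Huh7 against 245 in Huh7-C. In Hep3B-C it was up-regulated by 2.54 on the log2 scale (interval 2.20 to 2.89), and its log2 fold-change in the Huh7 pair was -0.08 (interval -0.33 to 0.18). With miRNA counts as library sizes neither of these calls was kept, and hsa-miR-106b* and hsa-miR-92b* were called down-regulated in the Hep3B pair.

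The ratio of hsa-miR-25* to hsa-miR-106b* was 0.0982 in Hep3B against 0.439 in Hep3B-C, and 0.296 in Huh7 against 0.592 in Huh7-C. These 2 passenger arms therefore shifted against each other in the same direction as their guide arms in both pairs. The log2 differences were 2.16 (interval 1.80 to 2.53) and 1.0 (interval 0.69 to 1.31). The arms of MIR25 did not keep a fixed ratio. Hsa-miR-25 had 42.1 counts for each count of hsa-miR-25* in Hep3B and 31.4 in Hep3B-C, a log2 difference of -0.42 (interval -0.78 to -0.08), and 12.0 in Huh7 and 22.4 in Huh7-C, a log2 difference of 0.90 (interval 0.64 to 1.17). The other passenger arms were scarce, with at most 21 counts for hsa-miR-93* and 20 for hsa-miR-92b* in a library. The log2 fold-change of hsa-miR-93* was 1.31 (interval -0.05 to 2.84) in the Hep3B pair, above that of hsa-miR-106b* (0.38). In the Huh7 pair it was -1.60 (interval -3.07 to -0.31), below that of hsa-miR-106b* (-1.08). There the guide arms had the reverse order. The ratio of hsa-miR-93 to hsa-miR-93* differed on the log2 scale by -0.64 (interval -2.17 to 0.72) and 1.63 (interval 0.34 to 3.11) in these pairs.

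Of the members, hsa-miR-20b and hsa-miR-363 of the chromosome X cluster differed most between the lines by total reads. Hsa-miR-20b was higher in Huh7 than in Hep3B by 7.44 on the log2 scale (interval 4.93 to 12.8), from 1 count against 110, and hsa-miR-363 by 5.22 (interval 3.96 to 6.87). Between the HCSC libraries the log2 ratio of Huh7-C over Hep3B-C was 4.11 (interval 2.92 to 5.61) for hsa-miR-20b and 3.96 (interval 3.14 to 4.90) for hsa-miR-363. These values, with miRNA counts as library sizes, stayed above 2.8, but between the parent lines hsa-miR-106a then differed by more than hsa-miR-363, at -3.11 against 2.84. The difference between the lines in these miRNAs was thus larger than any difference within a line that the counts could resolve.

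Over all members, 4 of 8 were at least 2-fold higher and 0 lower in Huh7 than in Hep3B, beside 58.0% and 18.3% of 476 miRNAs that reached 10 counts in a parent library. Hsa-miR-106b was one of the 4, with a log2 ratio of 1.47, and this turned to -0.91 with miRNA counts as library sizes. The remaining one was hsa-miR-18b, with 1 count against 10. Between the HCSC lines 2 members were at least 2-fold higher in Huh7-C, and 1, hsa-miR-106a, was lower, with a log2 ratio of -1.37 (interval -1.92 to -0.85), beside 22.9% and 47.2% of 502 miRNAs. With miRNA counts as library sizes 3 members were higher and 4 lower in Huh7 than in Hep3B, beside 26.1% and 47.5% of miRNAs. Between the HCSC libraries the members' counts were the same on that scale, beside 21.9% and 49.0%. Since these comparisons have 1 library on each side, they carry no test.

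Each chromosome X member was then set against the related miRNA of the miR-17-92 cluster in the same library, which for hsa-miR-363 was hsa-miR-92a, a miRNA with loci on chromosomes 13 and X. For hsa-miR-20b the ratio to hsa-miR-20a was 0.00440% in Hep3B and 0.0130% in Hep3B-C, against 1.06% in Huh7 and 1.24% in Huh7-C. Hsa-miR-363 stood to hsa-miR-92a at 0.0240% in Hep3B against 0.0135% in Hep3B-C, and 1.65% in Huh7 against 3.74% in Huh7-C. Intervals of the Hep3B line lay below those of the Huh7 line for both ratios. The rise of the second ratio from Huh7 to Huh7-C, 1.18 on the log2 scale (interval 0.81 to 1.55), came with a lower count of hsa-miR-92a (7139 in Huh7, 3739 in Huh7-C).

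Hsa-miR-106a, which differs from hsa-miR-17 by its first base, gave another picture. Its ratio to hsa-miR-17 was 0.557% in Hep3B (interval 0.451% to 0.680%) and 0.490% in Hep3B-C (interval 0.413% to 0.576%). It was 1.17% in Huh7 (interval 0.824% to 1.62%) and 1.05% in Huh7-C (interval 0.743% to 1.43%). Within each line the intervals of the HCC and HCSC libraries overlapped. Between the lines they lay apart, with the Hep3B line again lower, but by far less than for hsa-miR-20b and hsa-miR-363. In the Hep3B line hsa-miR-106a was thus counted 145 times in Hep3B-C beside 6 counts of hsa-miR-20b and 29610 of hsa-miR-17. Whether reads of hsa-miR-17 entered the count of hsa-miR-106a was not tested, since the counts do not hold the reads.

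**Figure D5:**
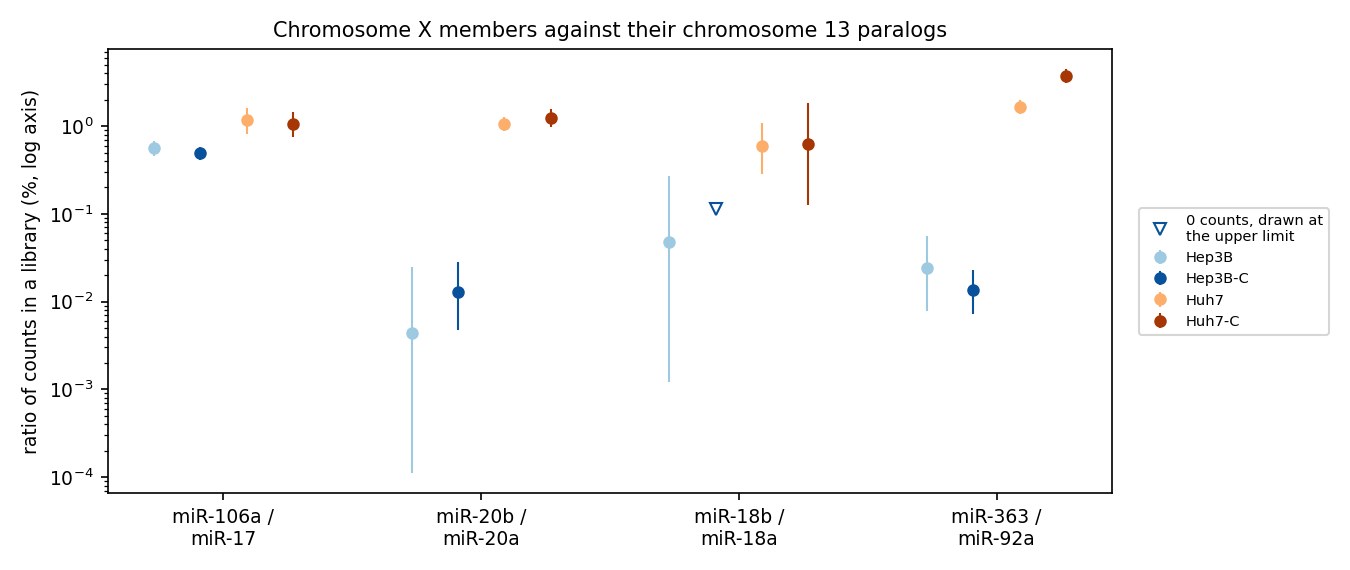
Counts of the 4 chromosome X members as a percentage of the related miRNA of the miR-17-92 cluster in the same library (log axis), with 95% intervals for counting error. The open triangle is the upper limit for 0 counts. For hsa-miR-20b and hsa-miR-363 the Hep3B line lies below 0.06% and the Huh7 line above 0.8%, while hsa-miR-106a stays between 0.4% and 1.7% in all 4 libraries.

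Passenger arms of the chromosome X hairpins were at or near 0. Hsa-miR-20b* had 0 counts in both libraries of the Hep3B line, 4 in Huh7 and 2 in Huh7-C. Hsa-miR-106a*, hsa-miR-18b*, hsa-miR-363*, hsa-miR-19b-2* and hsa-miR-92a-2* had 0 counts in each library, which allows up to 0.282 TPM in Huh7 by the limit of 3 counts. Of these, the last 2 mark the chromosome X copies of hsa-miR-19b and hsa-miR-92a. The arms that mark the chromosome 13 copies were counted, hsa-miR-92a-1* with between 63 counts in Hep3B and 388 in Hep3B-C, and hsa-miR-19b-1* with between 1 count in Huh7-C and 42 in Hep3B-C.

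The 6 miRNAs of the miR-17-92 cluster provide the closest comparison, having the same seeds as the members together with that of hsa-miR-19a and hsa-miR-19b. In the Hep3B pair 4 of 6 were called up-regulated, hsa-miR-92a with the highest log2 fold-change (2.33), and in the Huh7 pair 3 of 6 were called down-regulated, hsa-miR-19b with the lowest (-1.85), beside 33.0% and 17.1% of all miRNAs called in these directions. Those shares include miRNAs with too few counts to be called, while the 6 were abundant. Of miRNAs with at least 10 counts, 66.5% were at least 2-fold higher in the Hep3B pair, by the fold alone. In the Huh7 pair 37.4% of such miRNAs were at least 2-fold lower. Neither share of the 6 is therefore read as a result about the cluster. With miRNA counts as library sizes 0 of the 6 were called in the Hep3B pair, beside 5.28% of all miRNAs up-regulated and 13.4% down-regulated. On that scale 2 were called down-regulated in the Huh7 pair, where 9.59% of all miRNAs were. Of miRNAs with at least 10 counts, 24.4% were at least 2-fold lower there by the fold alone. The median over the 6 was 1.09 on the log2 scale in the Hep3B pair and -1.05 for Huh7-C over Huh7, beside 0.68 over the 6 and -0.29 over the 8 members with at least 10 counts. Hsa-miR-25 and hsa-miR-92a, which share a seed, were both called up-regulated in the Hep3B pair. From Huh7 to Huh7-C they lay at 0.83 and -0.95 on the log2 scale, neither of them called. Their ratio was 0.173 in Hep3B against 0.150 in Hep3B-C, and 0.430 in Huh7 against 1.47 in Huh7-C.

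Beyond these clusters, 9 other miRNAs of the table share a seed with the members in RefSeq by name, though for hsa-miR-526b and hsa-miR-367 the arm that the row counts could not be settled. Of these 9, 5 had at least 100 counts in a library, namely hsa-miR-17, hsa-miR-20a, hsa-miR-18a and hsa-miR-92a of the miR-17-92 cluster and hsa-miR-32, and the other 4 were at 0 in every library. Hsa-miR-32, of the seed AUUGCAC, had 341 counts in Hep3B against 484 in Hep3B-C, and 557 in Huh7 against 236 in Huh7-C. It was called down-regulated in the Huh7 pair (log2 fold-change -1.25, interval -1.48 to -1.03), as was hsa-miR-92b of the same seed, whereas hsa-miR-25 and hsa-miR-363, also of this seed, were not. The value of hsa-miR-32 by miRNA counts was -0.73, under the threshold. In the Hep3B pair its log2 fold-change was 0.63 (interval 0.42 to 0.83), also below the median of all miRNAs.

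Patterns over the 4 libraries were compared by the distance between centered log2 TPM values among 197 miRNAs with at least 100 counts in 2 or more libraries. The members, their passenger arms and the miR-17-92 cluster were left out of these 197, so closer patterns among them are not ranked. The pattern most like that of the summed miR-106b-25 cluster was that of hsa-miR-26b (distance 0.410), followed by hsa-miR-4746-5p (0.497) and hsa-miR-589 (0.583), where the median distance was 2.29. For the summed chromosome X members it was that of hsa-miR-532-5p (0.163), then hsa-miR-222 (0.296) and hsa-miR-126 (0.362). For hsa-miR-92b it was that of hsa-miR-151-5p (0.119), then hsa-miR-125a-3p (0.421) and hsa-miR-32 (0.533). With 4 points the likeness is a description only.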

How the data were processed

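Small RNA libraries of Hep3B, Hep3B-C, Huh7 and Huh7-C, 1 each, were read on an Illumina sequencer. The authors discarded contaminants, redundant reads and those under 18 nt, mapped the rest to an older human genome build with SOAP, set aside other small RNA classes and searched miRBase release 17, and they deposited the raw count of each miRNA. TPM was computed from these counts and the library totals stated in the study. The members and lists were chosen with earlier results of these data known.

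Each pair was compared by the Audic and Claverie exact Poisson test (2-sided, observed count included in the tail, a TPM of 0 set to 0.001), with Benjamini-Hochberg adjusted p-values over all miRNAs that had a count in the pair. The threshold was an absolute log2 fold-change of 1 and an adjusted p of 0.01. Both lines were fitted together by edgeR 4.0.16 (TMM, line as block; R 4.3.3) and DESeq2 1.42.0. Intervals are 95% exact binomial ones. Depth is given as the sum of miRNA counts of each library, but the limit of 3 counts was turned into TPM by total reads. Named were all members, their passenger arms, the miR-17-92 cluster and seed relatives with at least 100 counts. The 3 miRNAs of most like pattern outside the members, passenger arms and miR-17-92 cluster were named as well. In simulated data the pair test recovered 97.5% of 4-fold changes in the Hep3B pair (779 miRNAs) and 98.0% in the Huh7 pair (730 miRNAs). The changed miRNAs were drawn from those with at least 50 counts summed over the pair, and the simulated counts held counting error alone. Scarcer members, such as hsa-miR-20b, hsa-miR-363 and hsa-miR-18b in the Hep3B pair, were therefore not covered. With both lines together (443 miRNAs), the changed miRNAs had a mean of at least 50 counts. At a dispersion of 0.3, edgeR found a median of 73.2% of 8-fold changes over 50 simulations. The range was from 0% to 88.0%, so its power with 2 lines varied widely from draw to draw. Alternatives were other library sizes, filters, thresholds, pseudocounts and tests. Python 3.11.15 with scipy 1.17.1 was used.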

Additional observations from a re-analysis of the deposited data

Results flagged for a closer look

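By total reads, hsa-miR-106b moved in opposite directions in the 2 lines, with intervals for counting error clear of 0 in both pairs. On the log2 scale it stood at 0.34 for Hep3B-C over Hep3B and at -0.98 for Huh7-C over Huh7. No test of this difference was made, since each condition has 1 library, and with miRNA counts as library sizes both values were below 0 (-1.42 and -0.46). Both were also below 0 with TMM (-1.07 and -0.66) and with DESeq2 size factors (-0.84 and -0.40), so the opposite signs hold for total reads only.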

How the results depend on the processing

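The library size decided the calls of the members in the Hep3B pair. The count of up-regulated members in that pair went from 1 to 0 with total miRNA counts, TMM library sizes, DESeq2 size factors or edgeR's exact test at an assumed biological coefficient of variation of 0.4, and to 3 with the fold alone. The count of down-regulated members went from 0 to 4 with total miRNA counts, to 2 with TMM and to 1 with the fold alone. In the Huh7 pair 1 member, hsa-miR-25, was called up-regulated with each of the other 3 library sizes. The down-regulated member was lost (0) with total miRNA counts, DESeq2 size factors and the assumed coefficient of variation, and there were 2 with the fold alone. Signs turned in the Hep3B pair for hsa-miR-106b (-1.42 with total miRNA counts, -1.07 with TMM, -0.84 with DESeq2), hsa-miR-93 (-1.09, -0.74 and -0.51), hsa-miR-106a (-1.06, -0.71 and -0.48) and hsa-miR-92b (-1.54, -1.19 and -0.96), and for hsa-miR-363 with total miRNA counts (-0.26). Between Hep3B and Huh7 the count of members at least 2-fold lower in Huh7 went from 0 to 4 with total miRNA counts and to 3 with TMM or DESeq2. Signs turned for hsa-miR-106b with total miRNA counts (-0.91), and for hsa-miR-25 (-1.96, -1.04 and -1.02) and hsa-miR-92b (-1.61, -0.68 and -0.67) with the 3 library sizes. The shift under total miRNA counts follows from the miRNA share of total reads by construction, and the cause of the others was not tested. Over both lines, the count of members called stayed 0 in every fit of all 4 libraries, including the fit with no replicate block. The log2 fold-change of hsa-miR-25 was 1.11 without the block and between 0.74 and 1.64 with 1 library left out. The fits with 1 library left out also had no block, so they mix line with state. In them the log2 fold-change of hsa-miR-363 ranged from -2.80 to 3.77. Adding 0.5 counts left the change of the ratio of hsa-miR-25 to hsa-miR-106b at its value in both pairs.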
